A study of Homo sapiens with 13 samples.

Results

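Peaks of DNA-RNA hybrid signal in U2OS cells, a human osteosarcoma line, were compared between cells given a control siRNA (siCtrl) and cells given an siRNA against RNaseH1 (siRNaseH1). All peaks of these 2 lists on chromosomes 1 to 22 and X were taken, which were 25412 of the 26199 peaks the lists hold. The siCtrl list gave 4458 peaks and the siRNaseH1 list 20954. A siCtrl and a siRNaseH1 peak were paired where they overlapped by at least 1 bp.

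The hybrids were collected by DRIP-seq, in which sheared genomic DNA is precipitated with S9.6, a mouse antibody to DNA-RNA hybrids. The series holds 13 libraries, among them 3 S9.6 libraries of siCtrl cells and 3 of siRNaseH1 cells, all from cells labelled WT for genotype. The 3 libraries of a group had been merged before peaks were called, so each group was 1 peak list, no value had a replicate error and no test between the transfections was possible. Intervals given here are 95% intervals for counting error only. The siRNA sequences, the time after transfection and the degree of knockdown were not given in the sources used here.

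RNaseH1 is a ribonuclease that cuts the RNA strand of a DNA-RNA hybrid and acts in the nucleus and in mitochondria. Hybrids form when a new transcript pairs again with its template and displaces the other DNA strand, and the structure is called an R-loop. R-loops are known to gather just downstream of gene starts with many CpG, where the non-template strand is rich in G, and near gene ends.

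Of the siCtrl peaks, 2062 (46.3%) overlapped a siRNaseH1 peak, and 2043 siRNaseH1 peaks (9.75%) overlapped a siCtrl peak. These overlaps held 1901 pairs of 1 peak with 1 peak, on which all comparisons of width, summit and rank rest. A further 60 siRNaseH1 peaks each covered several siCtrl peaks, 125 in all, and 38 siCtrl peaks each met several siRNaseH1 peaks, 84 in all. No partner was found for 2396 siCtrl peaks and 18911 siRNaseH1 peaks. RNASEH1, the gene of the targeted enzyme, held 0 siCtrl peaks and 3 siRNaseH1 peaks inside the gene, with folds of 5.999, 4.59 and 3.78. Peaks do not measure its RNA, so they are no check of the knockdown. A fold here is the enrichment the authors deposited for a summit, over the peak caller's local background.

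The sequences just upstream of the start were taken for 3 genes whose start lay under a strong paired peak, since the results below turn on such starts. HEXIM1 encodes an inhibitor of the elongation factor P-TEFb, JUND an AP-1 transcription factor, and EIF4A1 an RNA helicase of translation initiation. Each line gives the 250 bases before the start, from RefSeq on GRCh38.p14, in the direction of transcription. Capitals mark runs of at least 4 G and the TATA box letters TATAAA.
HEXIM1, plus strand, chr17:45148225-45148474: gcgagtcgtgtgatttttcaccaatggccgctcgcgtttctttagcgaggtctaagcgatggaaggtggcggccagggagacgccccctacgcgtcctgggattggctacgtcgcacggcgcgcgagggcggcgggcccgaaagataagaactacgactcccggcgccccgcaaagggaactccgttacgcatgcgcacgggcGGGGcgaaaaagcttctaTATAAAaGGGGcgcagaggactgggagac
JUND, minus strand, chr19:18281623-18281872: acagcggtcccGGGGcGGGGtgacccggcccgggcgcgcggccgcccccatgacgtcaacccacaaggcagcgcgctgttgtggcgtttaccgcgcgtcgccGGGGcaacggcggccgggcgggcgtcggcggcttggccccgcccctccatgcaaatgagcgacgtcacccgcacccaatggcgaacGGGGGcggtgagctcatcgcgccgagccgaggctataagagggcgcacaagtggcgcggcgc
EIF4A1, plus strand, chr17:7572575-7572824: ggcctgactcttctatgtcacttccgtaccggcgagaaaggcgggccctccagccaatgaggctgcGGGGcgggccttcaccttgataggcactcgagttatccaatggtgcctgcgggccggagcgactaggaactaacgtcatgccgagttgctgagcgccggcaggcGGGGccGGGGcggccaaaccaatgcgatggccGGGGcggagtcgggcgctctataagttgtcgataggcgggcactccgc

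For contrast, the next lines give the same stretch for the 3 genes that led the siRNaseH1 peaks without a siCtrl partner at a gene start. FHL2 encodes a LIM domain protein, KDM3A a histone demethylase and TBRG4 a mitochondrial RNA-binding protein. The listed starts used for FHL2 and KDM3A lie inside the gene, not at the outer boundary of its span. Only the HEXIM1 stretch among these 6 held TATAAA, with its first base 29 bases before the start. The JUND and EIF4A1 stretches held the near match TATAAG at the same distance, which is not marked. Runs of 4 G were in all 6, between 2 and 4 to a stretch.
FHL2, minus strand, chr2:105399052-105399301: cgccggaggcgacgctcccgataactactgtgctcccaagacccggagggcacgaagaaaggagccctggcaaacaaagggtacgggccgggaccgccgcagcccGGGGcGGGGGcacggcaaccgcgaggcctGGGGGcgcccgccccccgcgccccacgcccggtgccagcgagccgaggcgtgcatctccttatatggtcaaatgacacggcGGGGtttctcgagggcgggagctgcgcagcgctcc
KDM3A, plus strand, chr2:86441211-86441460: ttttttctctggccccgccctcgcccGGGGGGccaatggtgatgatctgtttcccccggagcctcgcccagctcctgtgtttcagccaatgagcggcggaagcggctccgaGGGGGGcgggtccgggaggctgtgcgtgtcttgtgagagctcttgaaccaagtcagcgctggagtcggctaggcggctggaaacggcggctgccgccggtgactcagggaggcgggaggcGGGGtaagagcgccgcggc
TBRG4, minus strand, chr7:45111698-45111947: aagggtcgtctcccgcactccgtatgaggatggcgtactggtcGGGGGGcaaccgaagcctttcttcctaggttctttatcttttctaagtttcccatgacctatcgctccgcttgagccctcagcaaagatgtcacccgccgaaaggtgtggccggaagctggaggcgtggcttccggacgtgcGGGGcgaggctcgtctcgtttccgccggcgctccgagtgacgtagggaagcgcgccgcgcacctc

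The starts under the 2 kinds of peak were alike in base composition and differed in the share with TATAAA. Only this exact sequence was searched, so near matches such as TATAAG are not counted. Over the 300 bases from 250 before to 50 after the start, GC content had a median of 67.3% for the 561 protein-coding starts under a paired peak. It was 68.7% for the 2834 starts under a siRNaseH1 peak alone and 61.0% for the 18735 starts under no peak. The ratio of observed to expected CpG was 0.901, 0.892 and 0.681 in the same order. The excess of G over C in the first 50 transcribed bases, as (G − C)/(G + C), was 0.152, 0.143 and 0.0667. Both kinds of start with a peak were thus richer in GC, in CpG and in G along the transcript than starts without one.

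TATAAA on the sense strand was found in 42 of the 561 windows under paired peaks (7.49%, 5.59 to 9.97). It was found in 62 of the 2834 windows under siRNaseH1 peaks alone (2.19%, 1.71 to 2.79) and in 6.47% of all 22132 protein-coding windows. The intervals of these first 2 shares did not overlap. With the first base 40 to 20 bases before the start, where a TATA box works, the shares were 6.60%, 1.06% and 3.05%. On either strand they were 9.80%, 3.78% and 9.46%. GGGG on the sense strand was in 86.1%, 89.3% and 81.1% of the windows. Several windows can belong to 1 gene: the 42 windows came from 39 genes and the 62 from 59.

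Control peaks that had a siRNaseH1 partner lay at gene starts far more often than control peaks that had none. Summits were classed by RefSeq positions as within 2 kb of a gene start, within 2 kb of another gene boundary, inside a gene, or between genes. Chromosome 8 has no starts in the table used and was left out of these classes. Elsewhere the table lacks a start for some genes (15812 of all 19974 protein-coding genes have one), so the class of other boundaries also holds summits at starts that it does not list, such as those of ACTB, GADD45A, NOP58 and NEAT1. Of the paired siCtrl peaks, 493 of 1966 were at a gene start (25.1%, 23.2 to 27.0). Of the unpaired siCtrl peaks, 77 of 2224 were (3.46%, 2.78 to 4.31). Unpaired siRNaseH1 peaks lay at a start in 3698 of 18009 cases (20.5%, 20.0 to 21.1). Under a stricter pairing rule, in which each peak overlaps at least 50% of the other, the share of unpaired siCtrl peaks at starts was 13.8%. Between genes the order was turned round, with 15.3% of paired and 32.4% of unpaired siCtrl peaks and 10.0% of unpaired siRNaseH1 peaks.

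**Figure D1:**
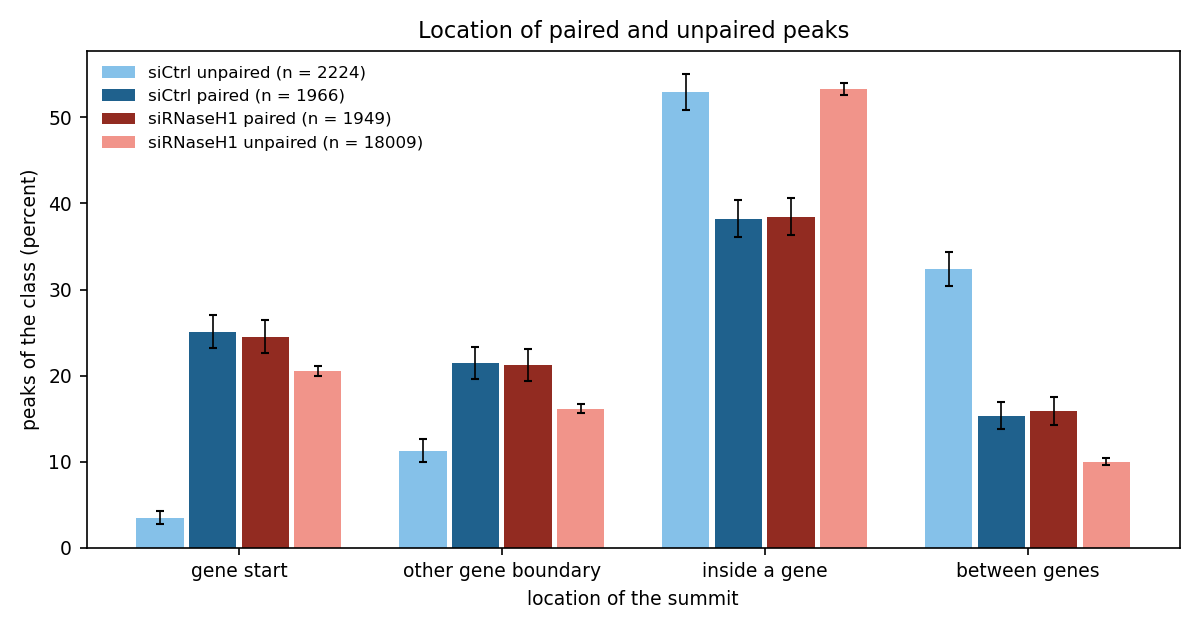
Share of peaks (percent, bars, with 95% Wilson intervals as error bars) by location of the summit, for siCtrl and siRNaseH1 peaks with and without a partner. The siCtrl peaks without a partner reached 3.46% at gene starts, against 25.1% of those with one, and 32.4% between genes, against 15.3%.

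The gap was also present among siCtrl peaks of like fold. At a fold of 4 to 5, 19.7% of the paired and 3.97% of the unpaired siCtrl peaks were at a start. At a fold of 6 or more the shares were 35.6% and 1.69%. Gene ends gave the same order, with 9.46% of paired and 3.19% of unpaired siCtrl peaks near one, and 8.73% of unpaired siRNaseH1 peaks. Within 2 kb of a start, the summit was downstream of it for 74.6% of paired siCtrl peaks and for 75.3% of unpaired siRNaseH1 peaks, at a median of 159 and 172 bp. For the 77 unpaired siCtrl peaks the share was 48.1% (37.3 to 59.0).

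Inside protein-coding genes of at least 20 kb, unpaired siCtrl summits more than 2 kb from both gene boundaries were spread nearly evenly. This inner part was cut into 4 equal stretches, in order from the start side to the end side. They held 23.2%, 26.5%, 24.1% and 26.2% of these summits. The paired siCtrl summits gave 25%, 19.4%, 19.9% and 35.7%. Unpaired siRNaseH1 summits gave 28.4%, 20.2%, 21.5% and 29.9%, also with more in the outer stretches.

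Seen from the control list, the share of peaks found again differed by where they lay and by their width. At gene starts 86.5% of siCtrl peaks were paired, at other boundaries 62.7%, inside genes 39.0% and between genes 29.5%. The share was 28.4% for peaks under 300 bp and 97.8% for the 134 peaks of 1000 bp or more, and wider peaks have more room to overlap. With siCtrl peaks put in 4 groups of near-equal size by fold, from low to high, 39.6%, 36.9%, 42.4% and 66.1% were paired, so the share was higher in the top group only. All of the 100 siCtrl peaks of highest fold were paired. Of the 100 siRNaseH1 peaks of highest fold, 90 were paired.

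The paired peaks were wider after the RNaseH1 siRNA, and most so at gene starts. The median width was 387 bp in siCtrl and 666 bp in siRNaseH1, and the median ratio within a pair was 1.55 (1.48 to 1.61). In 1487 pairs (78.2%) the siRNaseH1 peak was the wider, in 408 the narrower, and in 6 both were the same. At gene starts (463 pairs) widths went from 432 to 1208 bp, a median ratio of 2.46 (2.32 to 2.55), and 95.2% were wider. Inside genes (700 pairs) the ratio was 1.36 (1.29 to 1.42). Between genes (255 pairs) it was 1.09 (1.01 to 1.16), and 57.6% were wider. The intervals of the start and between-gene ratios were far apart. No called peak was under 266 bp in either list, so a siCtrl peak of median width could lose far less than it could gain. Width is that of the called region and was not separated from the height of the summit, which is given next.

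**Figure D2:**
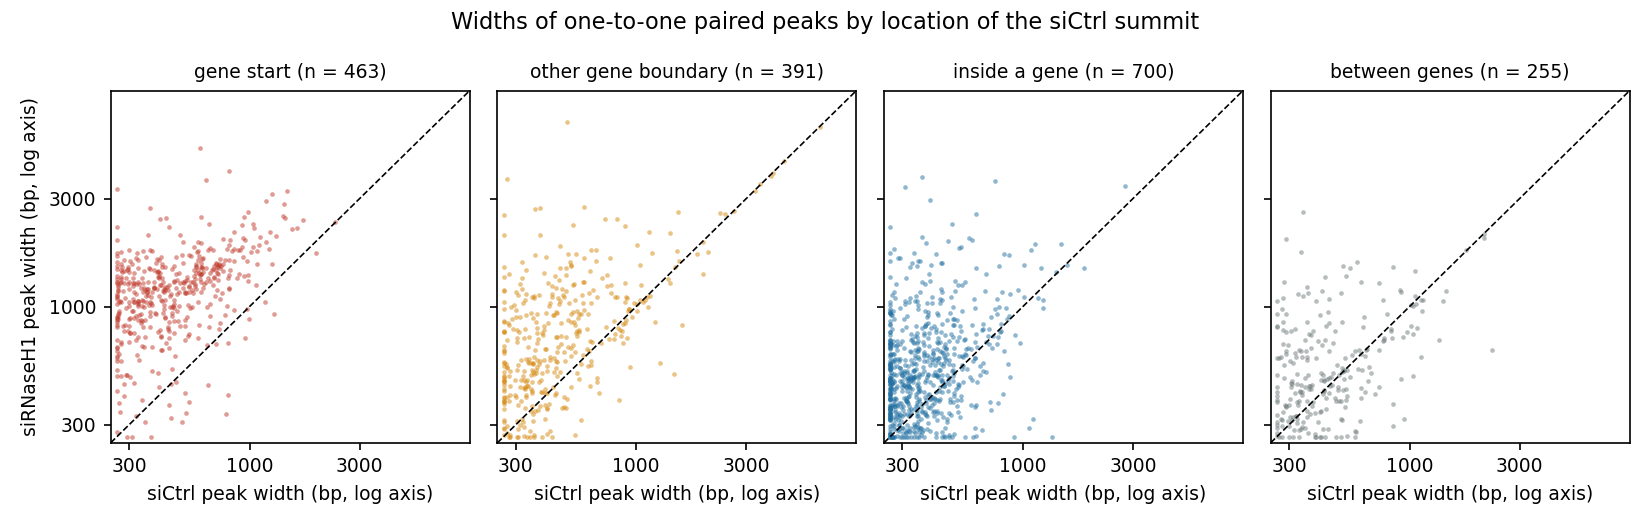
Width of each siRNaseH1 peak against its siCtrl partner (bp, log axes; 1 point per one-to-one pair), by location of the siCtrl summit, with equal widths as a dashed line. Points at gene starts lie mostly above the line, where 95.2% of pairs were wider in siRNaseH1, while points between genes lie on both sides of it, with 57.6% wider.

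Summit coverage followed the same order. Fragment numbers at the summits were worked back from the deposited fold and p-value, and coverage is this number over the lowest background in its list, 1.28 fragments in siCtrl and 1.36 in siRNaseH1. Pairs at gene starts had a median of 17 fragments in siCtrl and 75 in siRNaseH1, and the median ratio of coverage was 4.13 (3.84 to 4.53). The ratio was 1.65 at other boundaries, 1.37 inside genes and 1.10 (1.03 to 1.15) between genes. Of the 391 pairs at other boundaries, 70 were beside a protein-coding gene with no listed start and had a median ratio of 2.58, and the other 321 had 1.49. Coverage was higher in siRNaseH1, with Poisson intervals apart, in 609 of all 1901 pairs (32.0%) and lower in 18 (0.947%). At gene starts 365 of 463 were higher (78.8%) and 0 lower. Inside genes 86 of 700 (12.3%) and between genes 22 of 255 (8.63%) were higher. Most pairs held too few siCtrl fragments for a lower call, with a median of 15 and an upper quartile of 18. A paired siRNaseH1 peak held at least 8. The counts of higher and lower pairs are therefore not comparable. The ratio itself was above 1 in 1566 of all 1901 pairs (82.4%) and in 449 of the 463 at gene starts (97.0%). Pairs exist only where both lists passed the caller's threshold, so a locus that lost its peak is among the unpaired siCtrl peaks. Divided by the median background at the summits instead, the ratio between genes was 0.889 and that at gene starts 3.35. Where each peak of a pair had to overlap at least 50% of the other, which leaves out pairs of unequal width, the ratio at gene starts was 2.63.

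**Figure D3:**
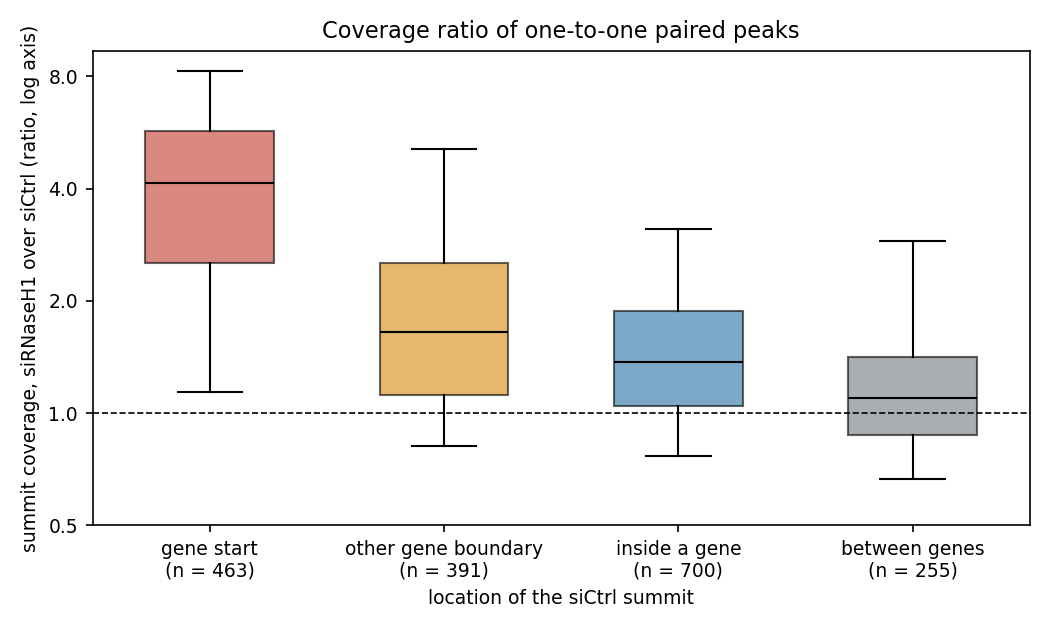
Ratio of summit coverage, siRNaseH1 over siCtrl (log axis), in one-to-one pairs by location of the siCtrl summit: line, median; box, middle 50% of pairs; whiskers, the 5th to 95th percentile; dashed line, equal coverage. The median falls from 4.13 at gene starts through 1.65 at other boundaries and 1.37 inside genes to 1.10 between genes.

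The called peaks at gene starts were wider on both sides. They were also higher at the summit, with a median of 75 fragments in siRNaseH1 and 17 in siCtrl. A gain in called width cannot be told apart here from a gain in height. The median siCtrl peak of the 463 pairs reached from 73 bp upstream to 411 bp downstream of the start, and the median siRNaseH1 peak from 418 bp upstream to 816 bp downstream. The median gain was 324 bp on the upstream side (302 to 361) and 335 bp on the downstream side (314 to 363). The downstream gain was the larger in 241 pairs (52.1%). The median summit was 164 bp downstream of the start in siCtrl and 166 bp in siRNaseH1. Within pairs the summits lay a median of 61 bp apart (54 to 70), and 299 pairs (64.6%) had them within 100 bp.

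**Figure D4:**
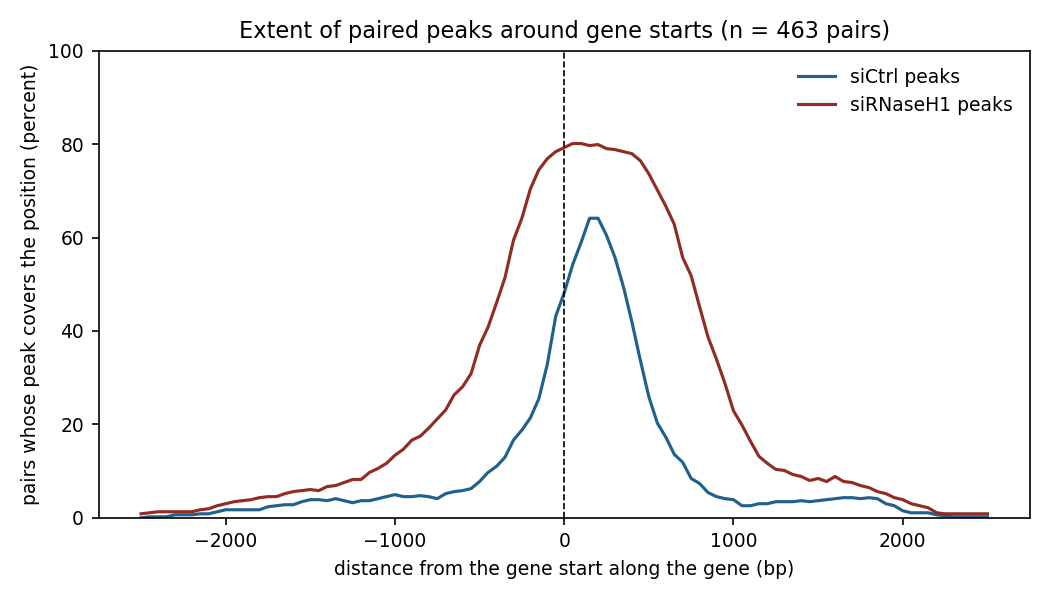
Share of the 463 one-to-one pairs at gene starts (percent) whose siCtrl or siRNaseH1 peak covers each position, by distance from the start along the gene (bp, downstream positive). At 200 bp downstream 64.1% of siCtrl and 79.9% of siRNaseH1 peaks covered the position, and at 300 bp upstream 16.6% and 59.4% did.

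Over all pairs, summits lay a median of 79 bp apart. In 1105 pairs (58.1%) they were within 100 bp, and in 80 (4.21%) more than 500 bp apart. The longest shift was 2108 bp, at MYADM on chromosome 19, a marker of myeloid differentiation that encodes a membrane protein, where 1451 bp in siCtrl met 3242 bp in siRNaseH1. FAM184B had a shift of 2035 bp and ACTG1, the gene of gamma-actin, one of 1309 bp. At FAM184B and ACTG1 a narrow control peak lay within a long siRNaseH1 peak: 266 bp in 2252 bp at FAM184B and 383 bp in 2734 bp at ACTG1.

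The order of the pairs by fold was only partly shared. Spearman's correlation of the 2 fold rankings was 0.325 over the 1901 pairs, whose summits share the caller's background model, and that of the widths was 0.364. Of the 10 pairs ranked highest in siCtrl, 4 were among the 10 highest in siRNaseH1, and of the first 100, 51 were.

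Changes in rank were followed only for pairs given to a named protein-coding gene, so pairs between genes could not appear. Among these, the pairs that rose most in rank were all at gene starts. DUSP2, which encodes a phosphatase of MAP kinases, had 21 fragments in siCtrl (13 to 32.1) and 436 in siRNaseH1 (396 to 479), a coverage ratio of 19.5, which was the highest of all pairs. Its rank went from 1779 to 25. TOB1, an antiproliferative factor, had 22 fragments in siCtrl and 230 in siRNaseH1, a ratio of 9.83. SC5D, an enzyme of cholesterol synthesis, had 17 and 149, and MRPL55, a mitochondrial ribosomal protein, had 20 and 155. FAM168B had 17 and 97.

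Under the same limit to protein-coding genes, the pairs that fell most in rank were inside genes and rested on few fragments. RILPL1 had 22 fragments in siCtrl (13.8 to 33.3) and 10 in siRNaseH1 (4.80 to 18.4), and its width was 1341 and 266 bp. NBPF20, of a gene family with near-identical copies, had 34 and 17. RABGEF1 had 17 and 11, ADK 15 and 13, and YWHAG 17 and 18. For each of these 5 genes the Poisson intervals of the coverage overlapped.

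Among the 10 genes with the highest paired siCtrl folds, those with a peak at the start had the larger coverage ratios. JUND had 121 fragments in siCtrl (100 to 145) and 924 in siRNaseH1 (865 to 986), a ratio of 7.18. HEXIM1 had 137 and 828 (ratio 5.68), EIF4A1 135 and 712 (4.96), and SETD5, a chromatin regulator, 107 and 592 (5.20). EPHA2, a receptor tyrosine kinase, had 79 and 319 (3.80), and the histone gene H2BC5 had 64 and 221 (3.25). PTPRS, a receptor phosphatase, was the exception among peaks inside a gene, with 134 and 931 fragments 31650 bp from the start in siCtrl, a ratio of 6.53.

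HFM1 and RNF141, also among these 10 genes, had lower ratios, with the peak inside HFM1 and beyond the end of RNF141. HFM1 had 360 fragments in siCtrl and 420 in siRNaseH1, a ratio of 1.10. The peak next to RNF141 (107 and 156 fragments, ratio 1.37) lay over MTRNR2L8, a nuclear copy of the mitochondrial 16S rRNA gene. Reads of mitochondrial origin cannot be told apart from reads of such a copy where the sequences match. Over 11 pairs on nuclear genes with mitochondrial-like names the median ratio was 1.37, from 0.873 to 1.68.

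Pairs on chromosome 21 had lower ratios, mostly near its ribosomal DNA. The 71 pairs on this chromosome had a median coverage ratio of 0.948, from 0.575 to 6.58, and a median width ratio of 0.986, and 8 had higher coverage. Of the 18 pairs with lower coverage in siRNaseH1, 17 lay there, between positions 8203234 and 8450626 of hg38, around the rRNA genes RNA45SN2 and RNA45SN3. This span held 38 pairs with a median coverage ratio of 0.855, and the 33 pairs elsewhere on the chromosome had 1.09, with 7 higher and 0 lower. The 17 pairs held from 301 to 2962 siCtrl fragments, enough for intervals to part at ratios of 0.628 to 0.905. Lower ratios elsewhere, such as 0.427 at RILPL1 and 0.470 at NBPF20, rested on few fragments and were not called lower. The 18 pairs thus do not show where coverage fell most. The peak over the 18S and 5.8S part of RNA45SN2 had 2962 fragments in siCtrl and 2768 in siRNaseH1, a ratio of 0.879. The remaining pair was at ART1 on chromosome 11, with 130 and 87 fragments. These loci exist in many near-identical copies, and how the authors treated reads that fit several places is not given in the sources used here. Without chromosome 21 the 1830 other pairs had a median coverage ratio of 1.65 and a width ratio of 1.58.

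Among protein-coding genes, the pairs that gained most width were led by immediate early genes, which are switched on within minutes of a stimulus. FOSB, an AP-1 factor, had 502 bp in siCtrl and 6547 bp in siRNaseH1, about the length of the 7.18 kb gene. EGR3, a zinc finger transcription factor, had 406 and 4069 bp, and IER2 274 and 3667 bp. MYADM had 607 and 4998 bp in a second pair of this gene, and CNN2, an actin-binding calponin, 364 and 3733 bp. Among these genes loss of width was smaller, with RILPL1 first, then CMIP at 1105 and 317 bp. JPT1 and PBK followed, each at 792 bp in siCtrl and at 334 and 340 bp in siRNaseH1. The narrowest called width, 266 bp in both lists, limits a loss but not a gain.

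Joined peaks gave the same picture at FOSL1, another AP-1 gene. There 4 siCtrl peaks, together 5547 bp and with folds from 3.71 to 11.1, lay under 1 siRNaseH1 peak of 7922 bp. At VCL, which encodes the adhesion protein vinculin, 1 siRNaseH1 peak of 1682 bp covered 3 siCtrl peaks, and at MIDN 1 of 4685 bp covered 2. Of the 38 siCtrl peaks that met several siRNaseH1 peaks, 17 lay between genes, 15 inside a gene, 5 at another boundary and 1 at a gene start, and 10 of the 38 were on chromosome 21. The 2557 bp siCtrl peak in MAG met 2 siRNaseH1 peaks, as did the 1634 bp peak in SYK, a tyrosine kinase. PPP6R2 held both kinds.

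The siCtrl peaks without a partner were narrow and low. Their median width was 304 bp, against 391 bp for paired siCtrl peaks, their median fold 4.72 against 5.06, and their highest fold 8.79. Only 0.125% were 1000 bp or wider. The median distance to the nearest siRNaseH1 peak was 36.3 kb, and 6.22% were within 1 kb of one. Scaled to the background of the siRNaseH1 list, all 2396 would have reached the lowest coverage called there at such a background. Their median was 1.52 times that limit, and 6.18% were at 2 times it or more. That all reached it was fixed in advance, since the lowest −log10 p kept was 3.68 in siRNaseH1 and 4.13 in siCtrl. All 2062 paired siCtrl peaks reached it too, so the limit does not show why a partner was missing.

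The 10 genes with the highest folds among these peaks carried them inside the gene or, at FZD6, near its boundary. STAT5B, a transcription factor of cytokine signalling, held a peak of 391 bp at chr17:42221718-42222108 with a fold of 8.36 and 25 fragments (16.2 to 36.9), and 0 siRNaseH1 peaks. ANO2, a chloride channel, had a fold of 8.35 with 18 fragments, and ANKRD55 one of 7.91 with 17, each with 0 siRNaseH1 peaks in the gene. UAP1, UACA, COL6A6, OPCML, NCOA2 and PPP6R3 had folds from 7.39 to 7.91 and held siRNaseH1 peaks elsewhere in the gene.

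The siRNaseH1 peaks without a partner had a median width of 381 bp, and 5.03% were 1000 bp or wider, against 31.7% of the paired siRNaseH1 peaks. Their median fold was 5.09, against 6.88. At gene starts the highest were FHL2 (fold 61.2, 170 fragments), KDM3A (58.5, 176) and TBRG4 (50.2, 151), whose upstream sequences are given above. Their summits were 163, 75 and 74 bp downstream of the nearest listed start, which for FHL2 and KDM3A lies inside the gene span. ALG13, PITPNA, PLXNA3, TFG, LSR, COPA and SKIL followed, with folds from 34.8 to 49.3. FHL2, LSR and COPA also held siCtrl peaks elsewhere in the gene. Scaled to the siCtrl background, 98.1% of the unpaired siRNaseH1 peaks would have reached the lowest coverage called in the siCtrl list. Each had already passed a limit close to it in its own list, so this share does not show why a partner was missing.

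At the level of genes, most had siRNaseH1 peaks alone or none. Of 19974 protein-coding genes, taken with 2 kb on either side, 7824 held a siRNaseH1 peak (39.2%) and 2393 a siCtrl peak. Both lists had peaks in 1985 genes (9.94%), of which 1381 held an overlapping pair (6.91%) and 604 held peaks at different places. SiRNaseH1 peaks alone were in 5839 genes (29.2%) and siCtrl peaks alone in 408 (2.04%). Genes with a pair had a median length of 32.8 kb, close to the 31.6 kb of genes with siRNaseH1 peaks alone. Genes with peaks at different places had 99.6 kb and genes with siCtrl peaks alone 70.9 kb. Among 18177 long noncoding RNA genes, 11.5% held a siRNaseH1 and 3.33% a siCtrl peak.

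The genes with most peaks differed by class. Of the genes with siRNaseH1 peaks alone, TAF2, a subunit of TFIID, held 18, the tankyrase gene TNKS 17, RIF1 16 and DHX15 14. Of the genes with siCtrl peaks alone, CALN1, CNBD1, CSMD3 and KIAA0825 held 3 each. These genes are 468 to 1214 kb long, and the genes named before them 57.1 to 226 kb. In RBM6, which had peaks in both lists but no pair, the higher of 2 siRNaseH1 peaks was 113 bp from the start and the highest siCtrl peak 92773 bp from it.

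Gene groups were then read against those shares of all protein-coding genes: 6.91% with a pair and 29.2% with siRNaseH1 peaks alone. Their pairs were read against the 32.0% of all 1901 pairs, and the 78.8% of pairs at gene starts, that had higher coverage. Of 29 immediate early genes, 16 held a pair, 9 siRNaseH1 peaks alone and 4 none. Their 20 one-to-one pairs were all wider in siRNaseH1, with a median width ratio of 3.02 and a median coverage ratio of 4.94, and 18 had higher coverage with intervals apart. The same medians were 1.55 and 1.59 over all pairs, and 2.46 and 4.13 over the 463 pairs at gene starts, where 78.8% had higher coverage. Of the 20 pairs 12 were at a gene start, so place and gene group cannot be told apart, here or in the groups that follow. DUSP1 had 42 fragments in siCtrl and 253 in siRNaseH1, and FOSL2 24 and 173.

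Of 31 genes for splicing factors and hnRNP proteins, which bind and process nascent RNA, 19 held a pair, 11 siRNaseH1 peaks alone and 1 neither. All 41 of their pairs were wider in siRNaseH1, with a median width ratio of 2.00. The median coverage ratio was 2.43, with 22 higher, and 15 of the 41 were at a gene start. SRSF7 had 43 fragments in siCtrl (31.1 to 57.9) and 267 in siRNaseH1 (236 to 301). HNRNPL had 36 and 268, and HNRNPF 30 and 241.

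Of 79 cytosolic ribosomal protein genes, 39 held a pair, 1 held peaks at different places, 34 siRNaseH1 peaks alone and 5 none. Of their 48 pairs, 47 were wider and 19 were at a gene start, and the median coverage ratio was 2.81, from 1.12 to 4.92. RPL41 had 32 fragments in siCtrl and 154 in siRNaseH1, and RPS16 29 and 150. Of 35 nucleolar and ribosome biogenesis genes, 6 held a pair and 24 siRNaseH1 peaks alone. NPM1, which encodes nucleophosmin, had 35 and 187 fragments, and NOP58, a protein of box C/D snoRNPs, 18 and 133.

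Of 38 RNase H enzymes and R-loop processing factors, 11 held a pair, 2 peaks at different places and 15 siRNaseH1 peaks alone. The median coverage ratio of their 18 pairs was 2.16, and 5 were at a gene start. Coverage was higher in 7 of the 18, not far from the 32.0% of all pairs. DDX21, a nucleolar helicase, had 35 fragments in siCtrl and 207 in siRNaseH1 at its start. TOP1, the topoisomerase that relieves supercoils behind RNA polymerase, had 14 and 37 inside the gene. Mitochondrial DNA maintenance is a process that needs RNaseH1. Of 30 genes listed for it, POLG2 held a pair, 1 held peaks at different places and 19 held siRNaseH1 peaks alone. A single gene with a pair is too few to set against the 6.91% of all protein-coding genes. The POLG2 siRNaseH1 peak is shared with DDX5, whose gene lies next to it.

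Of 21 heat shock and endoplasmic reticulum chaperone genes, 8 held a pair and 11 siRNaseH1 peaks alone. Coverage was higher in 7 of their 9 pairs, and 3 of the 9 were at a gene start. CANX, for calnexin, had 34 fragments in siCtrl and 202 in siRNaseH1. Of 22 p53 target genes, 4 held a pair, 13 siRNaseH1 peaks alone and 1, SESN1, a siCtrl peak alone. GADD45A, a DNA damage response gene, had 55 and 424 fragments, a ratio of 7.25. Of 30 cytoskeletal and extracellular matrix genes, 8 held a pair and 9 siRNaseH1 peaks alone. ACTB, for beta-actin, had 36 and 251 fragments.

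Of 34 replication-dependent histone genes, 7 held a pair, 9 siRNaseH1 peaks alone and 18 none. All 6 of their pairs had higher coverage and all 6 were at a gene start. Neighbouring histone genes share peaks, as H2BC5 and H1-4 do. Most genes of the next 2 lists are long noncoding RNA genes, of which 1.58% held a pair and 9.43% siRNaseH1 peaks alone. Of 20 snoRNA host genes, 6 held a pair and 11 siRNaseH1 peaks alone. Of 15 abundant long noncoding RNAs, 6 held a pair, and NEAT1, the scaffold of paraspeckles, had 113 fragments in siCtrl and 775 in siRNaseH1, a ratio of 6.45.

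Of 30 genes of other tissues, 25 held no peak in either list, against 58.8% of all protein-coding genes. SiRNaseH1 peaks alone were in 3, and 2 held a pair, MBP and TG. The coverage ratio was 0.836 at TG and 1.10 at MBP. Of 10 osteosarcoma and mesenchymal markers, CD44, RUNX2, FN1 and COL1A1 held siRNaseH1 peaks and none a siCtrl peak. Of 10 markers of other cells, TG and HBA1 held siRNaseH1 peaks. Peaks are not a measure of RNA, so these markers do not check the cell type. The lists were picked by hand and differ in gene length and in how many genes share a peak, and RNA levels were not analysed here.

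**Figure D5:**
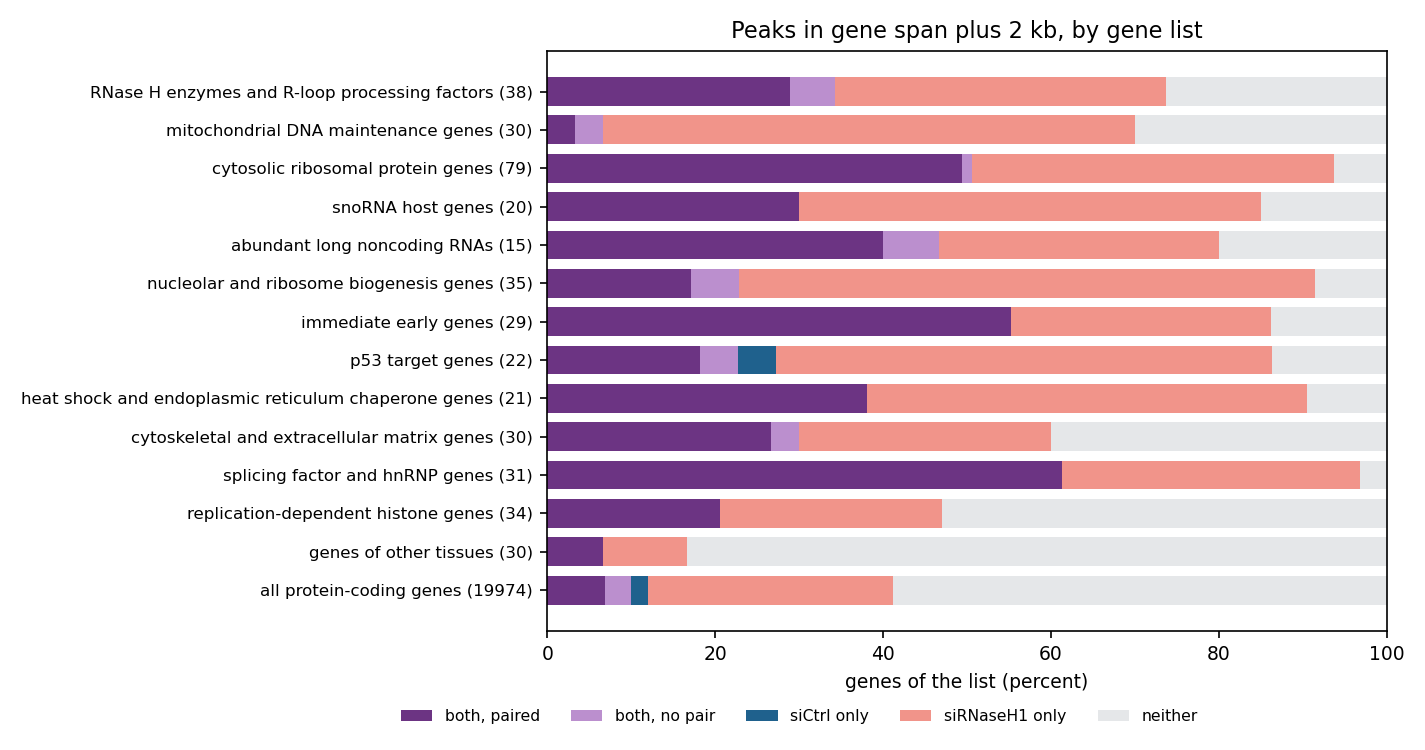
Share of the genes of each list (percent; number of genes in brackets) with an overlapping pair, peaks of both lists at different places, siCtrl peaks alone, siRNaseH1 peaks alone or neither, in the gene span plus 2 kb. Pairs reached 19 of 31 splicing factor and hnRNP genes and 16 of 29 immediate early genes, against 6.91% of all protein-coding genes.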

How the data were processed

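Per the labels' protocols, sonicated DNA was precipitated with S9.6 and made into ChIP-type libraries after second-strand synthesis. The build hg38 and the tools MACS2 2.1.0.20150731, HISAT2 2.2.1, Trim Galore 0.6.10, SAMtools 1.17 and deepTools 3.5.1 are named, without roles or options, per the submitters' processing notes. The control library and how repeated or ambiguous reads were handled were not given in the sources used here. Per the labels and the layout, the authors called 1 narrowPeak list per transfection on merged replicates. The deposited columns hold a score, a fold enrichment (ratio), −log10 p, −log10 q and the summit offset. The highest adjusted value kept was just under a q-value of 0.05 in both deposited lists. Library depth is unknown here. The siREXO4 list was not used.

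Fragments at each summit were recovered from fold = (fragments + 1)/(background + 1) and the upper Poisson tail. A whole number resulted within 0.001 in −log10 p for 4447 of 4458 siCtrl and 20942 of 20954 siRNaseH1 peaks, and within 0.0056 for the others. Gene spans, starts (34961, of 27195 genes) and sequences came from RefSeq tables of GRCh38.p14, which have a start for 15812 of 19974 protein-coding genes. Of 411 listed symbols 410 were found. Shares carry Wilson intervals, medians order-statistic intervals and fragments exact Poisson intervals, all 95%. Peaks are not replicates of a condition.

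Named genes were, within each class, the 5 or 10 extremes of fold, rank change, width change, summit shift or peak number and up to 4 members per gene list. ART1, SESN1 and the ribosomal and mitochondrial-like loci fall outside this rule and were named after their values were seen. Some genes that the rule named are not reported here. The members and lists were chosen with earlier results of these data known. Alternatives were stricter overlaps and thresholds, equal list lengths and other gene flanks. The code was tested on simulated peaks. It ran in Python 3.11.15 and used pandas 2.3.3 and SciPy 1.17.1 for the values, NumPy 2.4.6 for arrays and Matplotlib 3.10.9 for the figures.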

Additional observations from a re-analysis of the deposited data

Results flagged for a closer look

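Peaks on sequences other than chromosomes 1 to 22 and X were outside the comparisons. The siRNaseH1 list held 620 of them and the siCtrl list 167, and they were marked because they had been left unanalysed. The whole mitochondrial chromosome was 1 peak of 16569 bp in each list. Its deposited fold was 136.5 in siRNaseH1 and 75.9 in siCtrl, and it was marked for the same reason. With 1 merged list per transfection neither difference was tested.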

How the results depend on the processing

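No paired analysis was possible because the replicates of each group had been merged before peaks were called. With 1 list per group no library could be left out, and library depth, which limits what either list could hold, is unknown. Of 104 values recomputed under 11 alternatives, 47 stayed within the interval of the reported value (or, for counts, within 1.5 times it). A further 56 moved and 1 changed direction. The rank correlation had no interval, so any change in it was counted as moved, as happened under each alternative that recomputed it. The cause of these moves was not tested beyond the smaller sets that the thresholds leave. Where the overlap had to be at least 50% of the shorter peak, 43.8% of siCtrl and 9.19% of siRNaseH1 peaks were paired, and the rank correlation was 0.316. Where it had to be at least 50% of each peak, which leaves out pairs of unequal width, the shares were 24.3% and 5.18%, with 1085 pairs, a width ratio of 1.21, 68.9% wider, a summit shift of 69 bp and a rank correlation of 0.388. The coverage ratio at gene starts was then 2.63, and 13.8% of unpaired siCtrl and 21.3% of unpaired siRNaseH1 peaks were at starts. With folds of at least 5, 7.45% of siRNaseH1 peaks were paired, with 823 pairs, a width ratio of 1.76, 85.5% wider, a shift of 62 bp and a rank correlation of 0.370. Unpaired were 970 siCtrl and 10636 siRNaseH1 peaks, 25.2% of the latter at starts, the coverage ratio was 4.55 at starts and 1.15 between genes, and 891 genes had both kinds of peak and 241 siCtrl peaks alone. With −log10 q of at least 5, 60.7% of siCtrl and 6.85% of siRNaseH1 peaks were paired, with 862 pairs, a width ratio of 1.73, 81.8% wider, a shift of 60 bp and a rank correlation of 0.371. Unpaired were 584 siCtrl and 12352 siRNaseH1 peaks, 26.1% of the latter at starts, and 793 genes had both kinds and 134 siCtrl peaks alone. With both lists limited to as many lowest-p peaks as the shorter holds, 25.2% of siCtrl and 24.4% of siRNaseH1 peaks were paired, with 1020 pairs, a width ratio of 2.07, 90.8% wider, a shift of 62 bp and a rank correlation of 0.372. Unpaired were then 3370 siRNaseH1 peaks, 46.2% at starts, the coverage ratio was 4.54 at starts and 1.56 between genes, and 1260 genes had both kinds, 1133 siCtrl peaks alone and 2111 siRNaseH1 peaks alone. With groups of several peaks included the rank correlation was 0.302. The alternatives that follow were chosen after seeing the data, as were the coverage ratios and the shares of unpaired peaks at starts. Without chromosome 21 the rank correlation was 0.300. Without scaling, the coverage ratio between genes was 1.167. Scaled by the median background, it was 3.35 at starts and fell below 1, to 0.889, between genes.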
